A study of Schizosaccharomyces pombe with 6 samples.

Results

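Small nucleolar RNAs (snoRNAs) and spliceosomal small nuclear RNAs (snRNAs) of fission yeast were examined in poly(A)-selected RNA-seq counts. They were taken as every feature whose systematic identifier starts with SPSNORNA or SPSNRNA, which gave 60 of the 6988 features in the count table. Both strains were of mating type h-, carried the kanMX marker linked to pla1, and were grown to log phase in rich YES medium. One strain, pla1-WT, had the unmutated gene of the nuclear poly(A) polymerase Pla1, and the other carried the allele pla1-Y86D. The pla1 RNA itself, whose counts cannot show a point mutation, averaged 36.6 CPM (counts relative to a library total scaled across libraries) in the pla1-WT strain and 47.4 CPM in the other. Each strain was represented by 3 libraries with totals between 17594840 and 21849845 counts. The labels do not say whether these came from separate cultures, so p-values measure the spread between libraries, which may be technical. Among markers of M cells in pla1-WT, mam1 averaged 38.3, mfm2 22.3, mam2 5.02, mfm3 1.57 and mfm1 0.763 CPM, while mat1-Mc was listed at 0. Of the 5 tested, 1 was called higher in pla1-Y86D (mam2, log2 fold change 0.80) and 2 lower (mfm2 the most, -0.95). The P-cell markers map2 and map3 averaged 4.08 and 12.8 CPM in pla1-WT, with 1 called higher (map2, 0.58) and 1 lower (map3, -0.69). Such calls were common, at 40.1% higher and 41.1% lower over all features tested.

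Box C/D snoRNAs guide ribose methylation of ribosomal RNA, and box H/ACA snoRNAs guide its pseudouridylation, each in a particle with its own set of core proteins. A few, among them U3, U14 and U17 (snR30), act in the cleavage of the ribosomal RNA precursor. The snRNAs U1, U2, U4, U5 and U6 form the core of the spliceosome. Mature forms of both kinds lack a poly(A) tail. In fission yeast, polyadenylated snoRNA precursors are known to be trimmed by the nuclear exosome with help from the poly(A)-binding protein Pab2. Because the libraries were poly(A)-selected, the amount of an RNA and the share of it that carries a tail cannot be told apart in these counts, nor can a change per cell from a change in the number of cells that hold the RNA.

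The deposited product names put 19 members in box H/ACA, 1 (snoZ30) in box C/D and 5 among the snRNAs. The other 35 are named only as snoRNAs, and they include both U3 genes, snu3 and snu32, whose identifiers carry the snRNA prefix. By RefSeq sequence (assembly ASM294v3), the H/ACA members span 142 to 302 nucleotides, with a median of 168, and the other snoRNAs 47 to 326, with a median of 84.5. The letters TGATGA (box C) within the first 20 bases together with CTGA (box D) within the last 20 were held by 16 of the 35 snoRNAs with no stated box and by snoZ30. None of the 19 H/ACA members held both, nor did any of 1383 other noncoding RNAs of the table. ACA lay within the last 10 bases of 15 of the 19 H/ACA members (78.9%), against 15.3% of those other noncoding RNAs. All motifs were searched on the transcribed strand alone.

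Sequences from RefSeq are given for members picked by class among those with large changes. snu6, snu3 and snu32, whose log2 fold changes were above those of sno12 and snoR38, are not shown. The H/ACA snoRNAs with the 3 largest increases are shown first, with the ACA near the 3′ end in capitals.
snR94 (chromosome III): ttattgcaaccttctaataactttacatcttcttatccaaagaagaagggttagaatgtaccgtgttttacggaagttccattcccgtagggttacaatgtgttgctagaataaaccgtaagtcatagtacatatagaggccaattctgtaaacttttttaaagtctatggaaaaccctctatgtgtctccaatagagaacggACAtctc
snR33 (chromosome II): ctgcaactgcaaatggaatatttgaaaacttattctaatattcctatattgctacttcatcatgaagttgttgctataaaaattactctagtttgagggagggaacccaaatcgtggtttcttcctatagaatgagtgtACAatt
sno12 (chromosome III): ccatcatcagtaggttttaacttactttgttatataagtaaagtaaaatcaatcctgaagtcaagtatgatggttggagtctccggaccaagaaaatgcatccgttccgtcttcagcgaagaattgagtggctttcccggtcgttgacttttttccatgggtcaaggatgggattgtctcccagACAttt
The next 3 are intron-encoded snoRNAs that rose, with box C (TGATGA) and box D (CTGA) in capitals; snoR54 does not hold the box C letters.
snoR54 (chromosome II): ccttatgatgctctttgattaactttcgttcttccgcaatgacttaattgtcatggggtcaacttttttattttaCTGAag
snoR39b (chromosome II): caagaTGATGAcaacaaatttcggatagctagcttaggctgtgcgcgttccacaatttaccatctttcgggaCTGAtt
snoR38 (chromosome I): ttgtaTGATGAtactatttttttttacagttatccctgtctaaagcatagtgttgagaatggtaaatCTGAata
Below them are the 3 snoRNAs with the largest decreases, marked the same way; snoR02 holds neither motif in the windows searched.
snoR02 (chromosome I): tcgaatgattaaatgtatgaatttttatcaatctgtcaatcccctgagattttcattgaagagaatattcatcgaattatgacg
snoU14 (chromosome II): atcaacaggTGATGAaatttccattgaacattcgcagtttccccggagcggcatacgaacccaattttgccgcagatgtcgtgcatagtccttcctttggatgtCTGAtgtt
sno52 (chromosome I): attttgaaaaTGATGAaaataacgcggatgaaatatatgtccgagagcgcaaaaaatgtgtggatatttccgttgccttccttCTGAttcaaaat
The last is the U2 snRNA, which rose, with the letters GTAGTA that pair with the branch point in capitals.
snu2 (chromosome I): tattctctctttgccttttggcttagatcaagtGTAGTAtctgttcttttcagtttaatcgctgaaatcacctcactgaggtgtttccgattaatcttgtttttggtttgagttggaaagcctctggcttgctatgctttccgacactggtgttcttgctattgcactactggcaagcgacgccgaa

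Of the 60 members, 10 were listed at 0 in all libraries and 10 more had too few counts to test, with at most 33 counts summed over the 6 libraries. A count of 0 allows up to 3 counts per library, or 0.137 to 0.172 CPM. The other 40 were tested with edgeR's quasi-likelihood test on the whole table, with Benjamini-Hochberg adjustment over the 6267 features that passed the filter, and an adjusted p under 0.05 was called. Here 26 members were higher in pla1-Y86D and 7 lower, while over all features tested 40.1% were called higher and 41.1% lower. A change of at least 2-fold upward was called for 16 members, against 9.02% of all features, and 1 member fell at least 2-fold, against 2.38%. The median log2 fold change was 0.71 over the tested members and -0.005 over all features. Other annotated noncoding RNAs also ran upward, with 57.7% of 1168 called higher and a median of 0.42. Among them 26% were called higher by at least 2-fold. For 5 of the members called higher (snu2, snu6, snoR54, snoR54b and snoU18), only the mutant libraries all reached the filter's level, so these entered the test because they were high there. All 5 are among the 16 called at least 2-fold higher. In 28 of the 60 members every mutant library was above every pla1-WT library, and in 7 every one was below. Over all features tested these shares were 40.4% and 41.5%. The 28 include snu1 and snoR39a, which were not tested, and snu2, snu6, snoR54 and snoR54b, which were tested through the mutant libraries only. Among the 34 members over the filter's level in every library, 21 were higher and 7 lower.

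**Figure D1:**
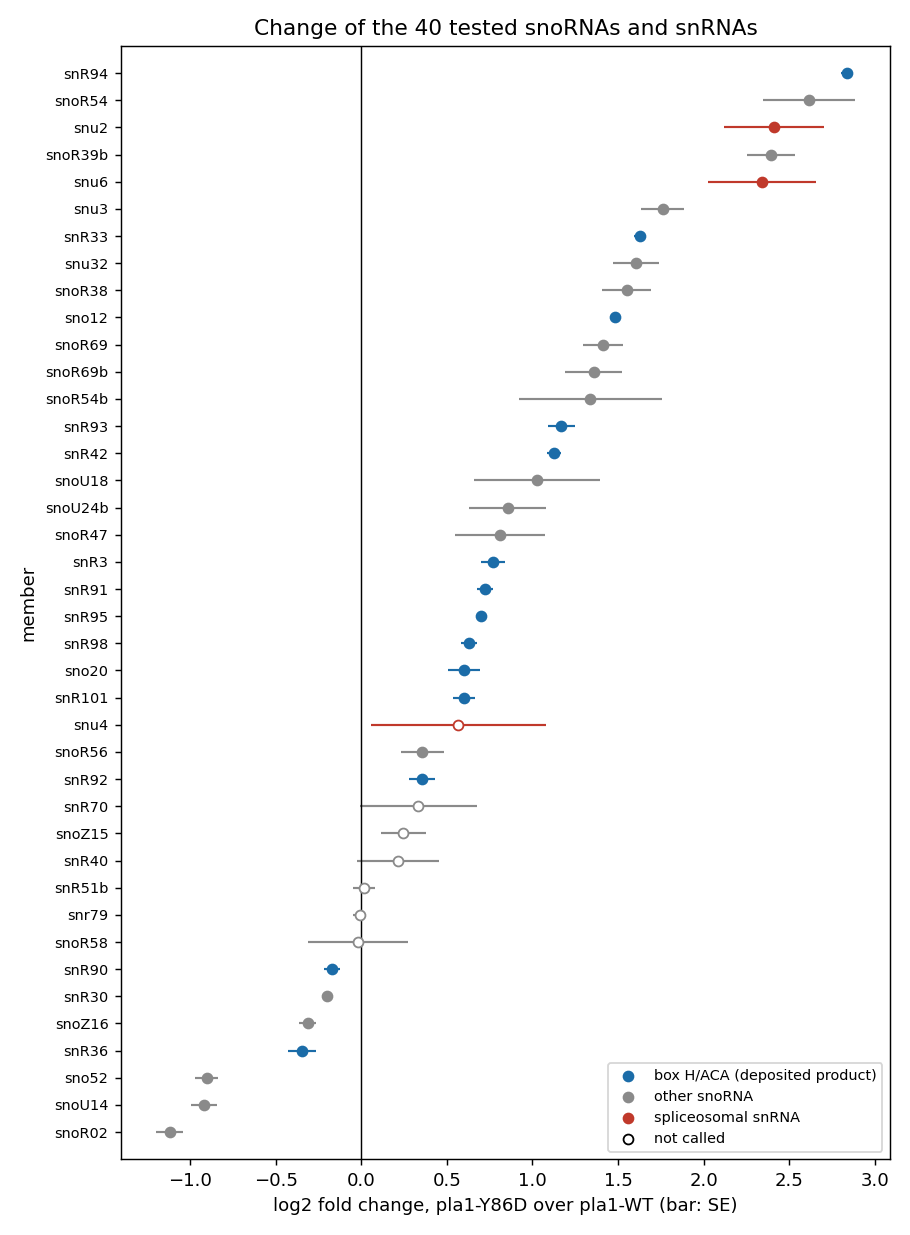
Log2 fold change (pla1-Y86D over pla1-WT) of each tested member, with bars for the standard error and colours for the class in the deposited product names. Filled points passed an adjusted p of 0.05 in edgeR's quasi-likelihood test. Values run from -1.12 for snoR02 to 2.83 for snR94, and 12 of the 14 H/ACA members lie to the right of 0.

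All of the members together took 0.207% ± 0.0082 (SD, n = 3) of the counts of a pla1-WT library and 0.287% ± 0.0089 (SD, n = 3) of the counts of a mutant library. The groups within this total did not move alike. The members whose products name box H/ACA rose from 0.0844% ± 0.0035 to 0.178% ± 0.0065, a factor of 2.11. This group leaves out snR30, whose product (U17) names no box but which holds ACA within its last 10 bases. The single RNA snR30 went from 0.0980% ± 0.0046 to 0.0840% ± 0.0019, so the factor would be smaller with snR30 in the group. snR30 made up between 46.9% and 47.7% of the member counts in pla1-WT libraries and between 29.1% and 29.5% in pla1-Y86D libraries. The 5 snRNAs together took only 0.00012% ± 4.3e-05 of the counts in pla1-WT and 0.0005% ± 8.9e-05 in pla1-Y86D. For each of these shares the libraries of the strains did not overlap, and the two-sided exact permutation p was 0.1, the smallest that 3 libraries against 3 allow.

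**Figure D2:**
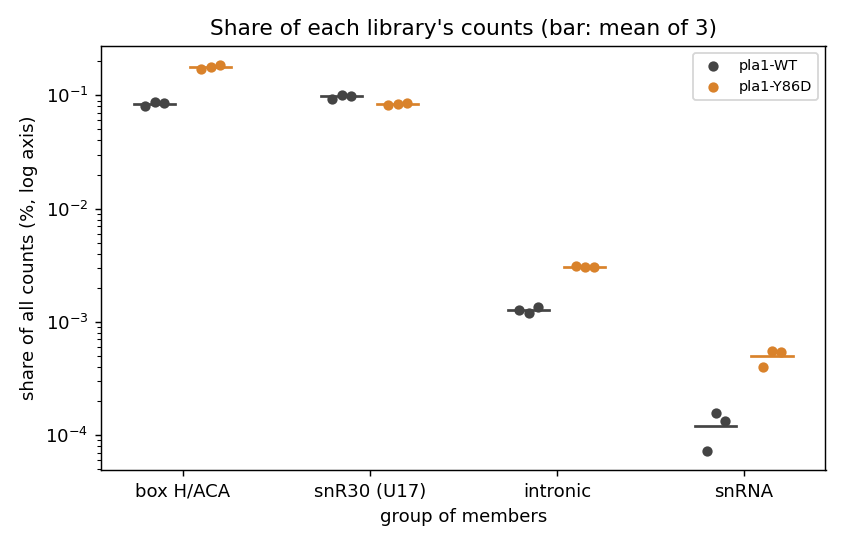
Share of all counts in a library (percent, log axis) on 4 groups of members, with 1 point per library and a bar for the mean of 3. The H/ACA points are between 0.0804% and 0.0869% in pla1-WT and between 0.172% and 0.185% in pla1-Y86D, while those of snR30 are lower in pla1-Y86D.

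Members named as box H/ACA had 12 of 14 tested higher in pla1-Y86D and 2 lower. Each of the 14 was over the filter's level in every library. Over all features tested 40.1% were called higher and 41.1% lower, and over other noncoding RNAs 57.7% and 19%. snR30, left out of this group because its product names no box, was called lower (-0.20, SE 0.031). Within the group snR94 changed most. It was at 36.9, 38.9 and 37.1 CPM in pla1-WT replicates 1 to 3 and at 257, 272 and 277 CPM in pla1-Y86D. The strains were thus far apart and the libraries of each close together, and snR94 rose by 2.83 on the log2 scale (SE 0.034, edgeR adjusted p = 2.84e-37). snR33 went from 45.7, 46.1 and 47.2 CPM to 139, 143 and 148 CPM, a log2 fold change of 1.63 (SE 0.035). sno12 was among the most abundant members already in pla1-WT, at 165, 181 and 172 CPM, and reached 467, 488 and 492 CPM in pla1-Y86D (log2 fold change 1.48, SE 0.030). These 3 RNAs have no counted gene overlapping them on either strand in the RefSeq annotation.

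Increases of at least 2-fold were also called for snR93 (log2 fold change 1.17, SE 0.080) and snR42 (1.13, SE 0.040). Smaller increases were called for snR3, snR91, snR95, snR98, sno20, snR101 and snR92, with log2 fold changes from 0.77 for snR3 down to 0.36 for snR92 (edgeR adjusted p = 0.00426 or less). The H/ACA members that fell were snR36 (-0.34, SE 0.082), from 14.9 ± 0.36 to 11.7 ± 0.60 CPM, and snR90 (-0.17, SE 0.049), from 43.7 ± 2.9 to 38.8 ± 1.3 CPM. Both lie opposite exons of protein-coding genes. The 5 H/ACA members outside the test were snR97, listed at 0, and snR5, snR10, snR46 and snR96, each averaging under the filter's level of 0.495 CPM.

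Per length the order of the members changed. In pla1-WT, snR30 led with a mean of 2983 CPM per kilobase, followed by sno12 at 909, snr79 at 776, snR95 at 680 and snoZ16 at 589. In pla1-Y86D, snR30 was at 2598 and sno12 at 2538 CPM per kilobase, and snR94, which had been at 179, came next at 1278. These levels use RefSeq lengths, and most of the members are short, so fragments near the ends of the RNA weigh heavily in them.

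The U3 genes rose together. snu3 was at 2.35, 3.14 and 3.07 CPM in pla1-WT and 9.45, 9.46 and 10.3 CPM in pla1-Y86D (log2 fold change 1.76, SE 0.13). snu32 was at 3.47, 3.37 and 4.13 CPM and at 9.85, 9.85 and 13.5 CPM (1.61, SE 0.13). Between the annotated RNAs, 115 of 132 aligned positions matched, with the match starting at base 3 of snu3 and at base 125 of snu32. Of the 206 windows of 50 bases in snu32, 41 occur elsewhere in the genome, but none of them within the annotated snu3, so the counts of snu32 are uncertain. No other member had a 50-base window that occurs elsewhere.

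The other snoRNAs with no stated box moved in both directions. Apart from U3 and the intronic RNAs, snoR69 (log2 fold change 1.41, SE 0.12), snoR69b (1.36, SE 0.17), snoR54b (1.34, SE 0.42) and snoR56 (0.36, SE 0.13) were called higher. snoR54b had only 11, 4 and 6 counts in pla1-WT and 18, 18 and 12 in pla1-Y86D. It was in the test through the mutant libraries only, so its call is no independent sign of an increase. The call of snoR56 had an adjusted p of 0.0103 by edgeR and 0.0528 by DESeq2, and of 0.0675 by edgeR without pla1-Y86D replicate 3.

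The largest decreases among all members were in short snoRNAs. snoR02 went from 20.03, 20.30 and 20.17 CPM in pla1-WT to 8.88, 9.62 and 9.36 CPM in pla1-Y86D (log2 fold change -1.12, SE 0.079, edgeR adjusted p = 7.09e-15). snoU14, the U14 RNA needed for processing of the small-subunit ribosomal RNA, went from 20.33, 20.03 and 21.13 CPM to 10.6, 11.2 and 10.8 CPM (-0.92, SE 0.077). sno52 went from 29.8, 31.6 and 31.1 CPM to 15.8, 18.6 and 15.2 CPM (-0.90, SE 0.068). In each of the 3, every mutant library lay well below every pla1-WT library. snoZ16 (-0.31, SE 0.048) and snR30 (-0.20, SE 0.031) fell by less. snR30 was at 914, 1011 and 992 CPM in pla1-WT and at 827, 854 and 860 CPM in pla1-Y86D, and it was the member with the most counts in every library.

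**Figure D3:**
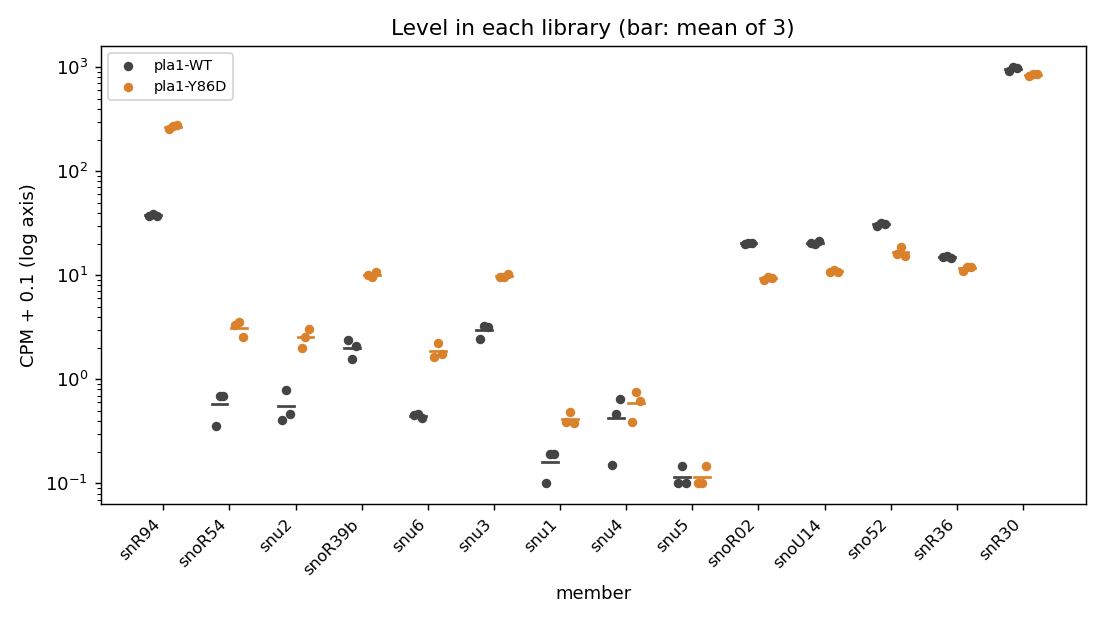
CPM plus 0.1 (log axis) of selected members in each of the 6 libraries, with a bar for the mean of 3. The members with the 6 largest increases and 3 other snRNAs are at the left, those with the 4 largest decreases and snR30 at the right. Points of snR94 sit between 36.9 and 38.9 CPM in pla1-WT and between 257 and 277 CPM in pla1-Y86D, while snu1, snu4 and snu5 are at most at 0.664 CPM in any library.

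The spliceosomal snRNAs were barely present. U2 (snu2) was at 0.307, 0.683 and 0.367 CPM in pla1-WT and 1.89, 2.43 and 2.98 CPM in pla1-Y86D (log2 fold change 2.41, SE 0.29, edgeR adjusted p = 3.36e-09). U6 (snu6), the only one made by RNA polymerase III, was at 0.358, 0.364 and 0.321 CPM and at 1.55, 2.16 and 1.66 CPM (2.34, SE 0.32, edgeR adjusted p = 3.45e-08). In both, every mutant library was above every pla1-WT library, although on 6 to 63 counts per library. Both entered the test only because they were high in the mutant libraries. Their p-values and this separation are therefore no independent sign of an increase. No snRNA was over the filter's level in every library. U1 (snu1) had 0, 2 and 2 counts in pla1-WT and 5, 7 and 6 in pla1-Y86D and fell under the filter. Without the filter edgeR called it higher (log2 fold change 2.22, adjusted p = 0.00878), as did the authors' deposited table (2.35, adjusted p = 0.0345). U4 (snu4) had 1, 8 and 12 counts in pla1-WT and 5, 12 and 11 in pla1-Y86D, which overlap (log2 fold change 0.57, SE 0.51, edgeR adjusted p = 0.303). U5 (snu5) had 1 count in pla1-WT replicate 2 and 1 in pla1-Y86D replicate 3, and no change was detectable at this depth.

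RefSeq places 10 members in introns of protein-coding genes, and 8 of them were tested. Of these, 6 were higher in pla1-Y86D and 0 lower by edgeR's quasi-likelihood test at an adjusted p of 0.05. As snoR54 and snoU18 were in the test through the mutant libraries only, the count among intronic members over the filter's level in every library was 4 higher of 6. Both counts are to be read against 40.1% called higher and 41.1% lower over all features, and 57.7% and 19% over other noncoding RNAs. The hosts of the 8 tested members were divided, with 4 mRNAs higher and 4 lower. snoR54, in the IMP dehydrogenase gene gua1, was at 0.255, 0.592 and 0.596 CPM in pla1-WT and 3.21, 3.48 and 2.46 CPM in pla1-Y86D (log2 fold change 2.61, SE 0.27), while gua1 mRNA rose by 0.10 on that scale (SE 0.026). snoR39b, in the ribosomal protein L7-like gene rpl701, was at 2.30, 1.46 and 2.02 CPM and at 10.02, 9.51 and 10.64 CPM (2.39, SE 0.14), against 0.25 (SE 0.026) for the host.

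Counts on some intronic snoRNAs and on their hosts went in opposite directions. Whether the counts on these features came from the snoRNA or from host RNA that kept the intron was not tested. snoR38 rose by 1.55 on the log2 scale (SE 0.14), from 1.99, 2.37 and 2.61 CPM to 6.70, 7.36 and 6.52 CPM. Its host SPAC29A4.02c, for elongation factor EF-1 gamma, fell from 1656 ± 16 to 847 ± 6.5 CPM (-0.97, SE 0.025). snoU24b (0.86, SE 0.22) rose while cpc2, the RACK1 homologue, fell (-0.23, SE 0.025), and snoR47 (0.81, SE 0.26) rose while the kinetochore gene fta3 fell (-0.32, SE 0.027). On the scale of log2(CPM + 0.5), snoR38 minus its host ranged from -9.37 to -9.07 in pla1-WT and from -6.92 to -6.76 in pla1-Y86D. For this difference, as for those of snoR54, snoR39b, snoU24b, snoR47 and snoR58, the mutant was higher. Each exact permutation p was 0.1, the smallest possible here. As snoR54 was in the test through the mutant libraries only, its separation is no independent sign of an increase. snoR58 itself was not called (-0.02, SE 0.29, edgeR adjusted p = 0.955), while its host ade4 fell (-0.90, SE 0.023). snoZ15 minus pfd1 went the other way, also at an exact p of 0.1. The prefoldin mRNA pfd1 rose by 0.59 and snoZ15 was at 0.25 (SE 0.13, not called, edgeR adjusted p = 0.0795). With scaling on protein-coding features, snoZ15 was called (0.30, edgeR adjusted p = 0.0338). For snoU18 in ero11 the difference gave an exact p of 0.5. The snoU18 value itself (1.03, edgeR adjusted p = 0.0109) lost its call when pla1-WT replicate 2 was left out (edgeR adjusted p = 0.088) or pla1-Y86D replicate 3 was (0.0799), and its strains overlapped.

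**Figure D4:**
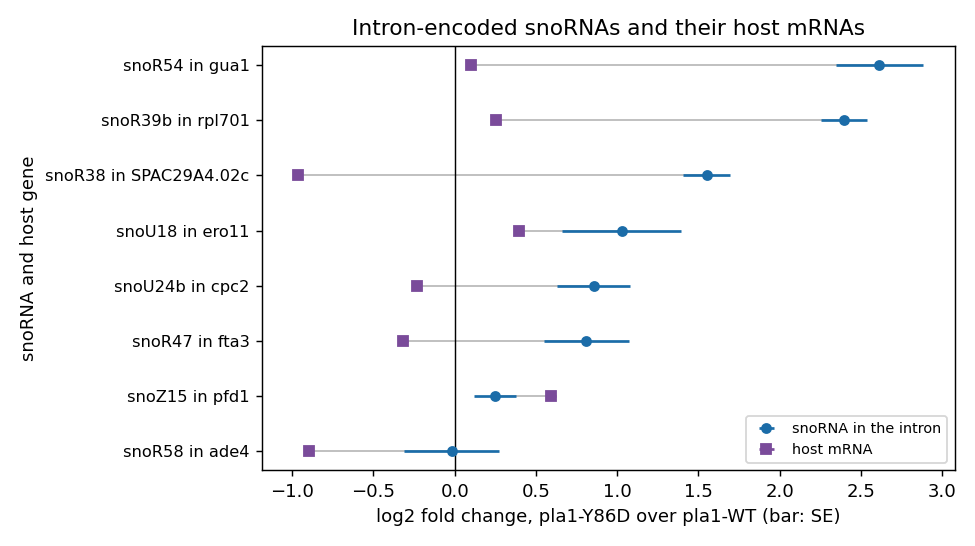
Log2 fold change (pla1-Y86D over pla1-WT) of the 8 tested intronic snoRNAs (circles) and of their host mRNAs (squares), with bars for the standard error. The snoRNA lies to the right of its host in each pair except snoZ15 in pfd1.

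The features listed at 0 were mostly those inside another counted RNA. In the RefSeq annotation 8 members lie in an exon of a counted gene on the same strand, and all 8 were at 0 in every library. Outside these, only snr62 and sno16 were at 0. The enclosing RNAs were counted, and whether their counts include reads over the snoRNAs was not tested. SPNCRNA.659 (snoZ), annotated in the authors' deposited table as the primary transcript of snoZ3, snoZ4, snoZ5, snoZ7 and snoZ8, averaged 11.7 ± 0.61 CPM in pla1-WT libraries and rose to 36.6 ± 1.5 CPM in the mutant (log2 fold change 1.64, SE 0.065, edgeR adjusted p = 5.92e-22). The RNA around snR97, rad8-antisense-1, rose from 21.5 ± 1.4 to 33.1 ± 1.5 CPM (0.62, SE 0.060). SPNCRNA.1483, which encloses snoZ30, rose by 0.25 (SE 0.082, edgeR adjusted p = 0.00655), and SPNCRNA.1650, around snoR68, was not called (-0.14, SE 0.098, edgeR adjusted p = 0.198).

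A further 8 members lie opposite an exon of a counted gene, and none of them was at 0. Of the 7 tested, 2 were higher and 4 lower, a small set to read against the 40.1% and 41.1% of all features. Which strand was counted is not given in the sources used here, so reads of such a pair may be confused. sno52 (-0.90) and taf9 mRNA (-1.11) on the other strand fell together, as did snR36 and psd1 (-0.34 and -0.31) and snR90 and not3 (-0.17 and -0.38). snoR02 fell by 1.12 on the log2 scale and its partner alg3 fell by 0.27. sno20 rose by 0.60 and SPBC1921.04c opposite it by 2.15, though from a mean of only 0.177 to 0.777 CPM. snR92 rose by 0.36 and mag2-antisense-1 opposite it by 0.53. Each called member of this set thus moved in the direction of its partner, and whether reads were confused between them was not tested. snr79 was not called (-0.01, SE 0.036, edgeR adjusted p = 0.824) while gpi12 opposite it rose by 0.66.

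The uncalled members with the highest counts were snr79, snR51b and snoZ15. snr79 was at 68.5, 67.6 and 68.9 CPM in pla1-WT and 66.9, 67.7 and 68.9 CPM in pla1-Y86D. snR51b was at 24.4, 23.4 and 23.1 CPM and at 21.2, 24.3 and 25.9 CPM (log2 fold change 0.02, SE 0.066, edgeR adjusted p = 0.814). The strains overlapped for both. The log2 fold changes of the 7 uncalled members lay between -0.02 and 0.57.

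Readings of the next counted gene downstream on the same strand, by order in RefSeq, were split. Of 23 members called higher with a tested downstream neighbour, 9 had that neighbour higher and 8 lower, near the 40.1% and 41.1% of all features. After snR33 came fnx1-antisense-1, which rose from 1.22 to 5.26 CPM on average (edgeR adjusted p = 6.45e-13), and after sno12 came the kinetochore gene mis16, which fell (-0.34, SE 0.032). The tRNA gene after snR94 had too few counts to test.

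The proteins of the snoRNA particles were examined at the level of their mRNAs. Calls were common among all protein-coding features, with 35.6% called higher and 46.8% lower, and the counts of each short list below are to be read against these shares. Of the box C/D core proteins fib1, nop56, nop58 and snu13, 0 were called higher and 2 lower, with nop58 lowest (-0.16, SE 0.024). Of the box H/ACA core proteins, 0 were called higher and 3 lower, with nhp2 at -0.55 (SE 0.024), from 394 ± 8.6 to 268 ± 2.7 CPM. Of 5 assembly factors measured, 3 were higher and 1 lower. The helicase-like ATPase gene rvb2 was at 0.45 and the H/ACA chaperone gene shq1 at -0.46.

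The Sm protein genes, whose products form a ring on U1, U2, U4 and U5, had 3 higher and 2 lower of 7, against the same 35.6% and 46.8%, with smg1 at 0.43 and smf1 at -0.56. Genes of the Lsm ring of U6 had 3 higher and 1 lower of 7, with lsm3 at 0.60 and lsm6 at -0.15. Of 5 proteins particular to U1 or U2, 0 were called higher and 3 lower, with msl1 at -0.52 (SE 0.11). Among genes that modify or bind snRNA and snoRNA ends, the U6 methyltransferase gene mtl16 rose (0.47) and the cap trimethylation gene tgs1 fell (-0.50), with 1 higher and 2 lower of 3.

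Genes for 3′ end processing and decay of small RNAs had 3 higher and 7 lower of 18, against 35.6% and 46.8% of protein-coding features. The exosome cofactor gene cti1 fell from 71.2 ± 0.95 to 31.7 ± 1.2 CPM (-1.17, SE 0.043, edgeR adjusted p = 4.97e-23). The TRAMP subunit gene air1 (-0.57) and the helicase gene mtr4 (-0.42) also fell, and pcf11, of the cleavage and polyadenylation complex, rose by 0.38. For rrp6 and pab2 the log2 fold changes were 0.01 in each case (SE 0.027, edgeR adjusted p = 0.781 and 0.652). The other stable noncoding RNAs outside the snoRNA and snRNA names had 3 higher and 1 lower of 4. These are to be read against 57.7% and 19% of the other noncoding RNAs tested. The signal recognition particle RNA srp7 rose from 2.89 ± 0.34 to 6.80 ± 0.65 CPM (1.23, SE 0.14) and the RNase MRP RNA mrp1 from 24.0 ± 2.3 to 50.8 ± 3.6 CPM (1.07, SE 0.060). The RNase P RNA rrk1 fell (-0.49, SE 0.12).

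The authors' deposited table called 26 members higher and 7 lower at an adjusted p of 0.05. Of these, 25 of the higher and all 7 of the lower were also called here, with no member called in opposite directions.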

How the data were processed

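RNA from a hot acid phenol extraction was sequenced in paired ends with a stranded poly(A) kit, per the labels' protocols. The deposited counts are whole-number reads per annotated feature, not normalized. The submitters' processing notes name the aligner HISAT2 2.1.0 and the counter HTSeq 0.10.0 besides SAMtools, DESeq2, DESeq and the build ASM294v2. No source used here gives the annotation release, the strand counted or what was done with multiply aligned reads. A further table gives, per the file headers, the authors' DESeq2 comparison: means of normalized counts (signal), log2 fold changes with standard errors, a Wald score, and p-values. It supplied names, products and the count of shared calls.

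The test on counts was run in edgeR 4.0.16 (R 4.3.3): filterByExpr, TMM (trimmed mean of M-values) scaling and a robust quasi-likelihood fit with strain as the only term. CPM are counts relative to the TMM-scaled total. The SE is the size of the log2 fold change over the square root of F. The fit was tested on simulated data. DESeq2 1.42.0 and limma 3.58.1 (voom) were alternatives. Positions, lengths and sequences came from RefSeq ASM294v3, matched by identifier for 60 of 60 members. As that build differs from the authors', no coordinates are given.

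Members and lists were chosen with earlier results of these data known. Named with values were the snRNAs, the U3 genes, the 10 largest increases, all 7 decreases, the 3 most abundant uncalled members, and the largest change in each direction of each list; other members, hosts and neighbours were named after their values were seen. The list symbols tah1, pih1, bmc1, mat1-Mm, mat1-Pc and mat1-Pi had no match and were not used here. Pairs of libraries of a strain gave a chi-square of 1.63 to 4.83 per degree of freedom, above sampling noise, and each library was kept as a replicate. Limits from a count of 0 cover counting error only.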

Additional observations from a re-analysis of the deposited data

How the results depend on the processing

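Over the alternatives to the test, scaling, filter and libraries, the count of members called higher stayed between 24 and 27 and the count called lower at 7; box H/ACA members stayed at 12 higher and 2 lower, and intronic members at 5 to 7 higher and 0 lower. The share of counts on the members differed by 0.0798 percentage points between strains, by 0.0823 as a share of protein-coding counts, by 0.0751 to 0.0843 with a library left out, and by 0.0937 without snR30, since snR30 itself was lower in pla1-Y86D. Of 520 values of the 40 tested members under an alternative, 515 kept their side of the threshold, 4 lost the call (snoR56 and snoU18) and 1 gained it (snoZ15). The sign changed in 11 values, of snR40, snR51b, snoR58 and snr79, none called in either fit. Of the members not tested, snu1 was called higher without the filter and by DESeq2. Equal replicate numbers did not pair the libraries (correlations of deviations of -0.073, -0.017 and -0.049), and with the replicate number as a block 26 members were higher and 7 lower. No scaling tried can show a change in total poly(A) RNA. Depth limits the snRNAs most, with U5 at 2 counts in all.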
